A study of Mus musculus with 12 samples.

Results

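The 7 genes described here make and receive interferon and interleukin 15 signals. They are Ifnb1 for the interferon beta ligand, Ifnar1 and Ifnar2 for the receptor of type I interferons, Ifngr1 and Ifngr2 for the receptor of interferon gamma, and Il15 with Il15ra for interleukin 15 and its alpha receptor. They were taken by symbol from a gene table of 54446 genes, and 7 of 7 were found and passed the filter on low counts. RNA was sequenced from macrophages that had been grown from mouse femur and tibia marrow in RPMI 1640 with macrophage colony-stimulating factor. Every animal carried Nlrc3 alleles flanked by loxP sites (Nlrc3 fl/fl). The knockout (KO, NLRC3ΔMac) also carried Cre recombinase under the LysM promoter, a promoter of myeloid cells, while wild type (WT) animals had no Cre. Cells received lipopolysaccharide (LPS), a bacterial ligand of the receptor TLR4, for 12 h or were left in RPMI 1640 medium. The 4 groups of 3 libraries were KO with LPS, KO in medium, WT with LPS and WT in medium. The sources used here do not give age, sex or strain.

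In macrophages, TLR4 acts through the adaptor TRIF and the kinase TBK1 on the transcription factor IRF3, which turns on Ifnb1. The secreted interferon beta then binds IFNAR1 and IFNAR2 on the same and on nearby cells, and the kinases TYK2 and JAK1 pass the signal to STAT2 and IRF9. Interferon gamma, made mainly by T and NK cells, binds IFNGR1, while IFNGR2 completes the receptor and brings in JAK2. Interleukin 15 is held by its alpha receptor on the surface of the cell that makes it and is shown from there to NK and T cells.

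Library totals lay between 13082947 and 20960505 counts, and a level of 3 counts corresponded to 0.143 to 0.229 counts per 1000000 (CPM). Levels below are CPM scaled by trimmed-mean (TMM) factors, written "scaled CPM" and listed for libraries 1, 2 and 3. Whether the 3 libraries of a group came from different animals is not stated, and the p-values cover no more than the spread among them. Nlrc3, the targeted gene, and Nos2, the inducible nitric oxide synthase, served as a check of the labels. Nlrc3 stood at 12.9, 6.68 and 4.91 scaled CPM in libraries labelled KO LPS, 1.41, 1.21 and 1.11 in those labelled KO medium, 1.04, 4.32 and 1.71 in WT LPS and 7.30, 12.3 and 7.09 in WT medium. Nos2 was at most 4.51 scaled CPM in libraries labelled KO LPS and at least 1634 in those labelled KO medium, against at least 818 in WT LPS and at most 5.72 in WT medium. The targeted gene thus went against the label in the libraries labelled KO LPS, where Nlrc3 was higher than in WT LPS. In those labelled KO medium it was lower than in WT medium. In WT, however, Nlrc3 was also lower with LPS (log2 fold −1.89 ± 0.53 SE; edgeR, Benjamini-Hochberg adjusted p = 0.0268). Its levels in libraries labelled KO medium overlapped those in WT LPS. Its levels in libraries labelled KO LPS overlapped those in WT medium. Whether the deletion lowered Nlrc3 in the libraries labelled KO medium was not tested. Nos2 was low in the libraries labelled KO LPS and high in those labelled KO medium, the reverse of its order in WT. Every direction that involves KO is therefore that of libraries labelled so. Of 12 macrophage markers, 12 had counts, with summed levels of 21720 to 33470 scaled CPM in libraries labelled KO LPS, 16600 to 21990 in those labelled KO medium, 18770 to 27540 in WT LPS and 28060 to 35570 in WT medium. Libraries 2 and 3 labelled KO LPS stood apart with high markers of some other cells: their B cell markers summed to 254 and 342 scaled CPM, against at most 78.9 in the other libraries. Their stromal markers, at 25.1 and 42.3 scaled CPM, were the lowest of the 12 libraries. Xist, the transcript of the inactive X chromosome, exceeded 50 CPM in 5 of 12 libraries, namely KO LPS 2 and 3, WT LPS 2, and WT medium 1 and 3.

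**Figure D1:**
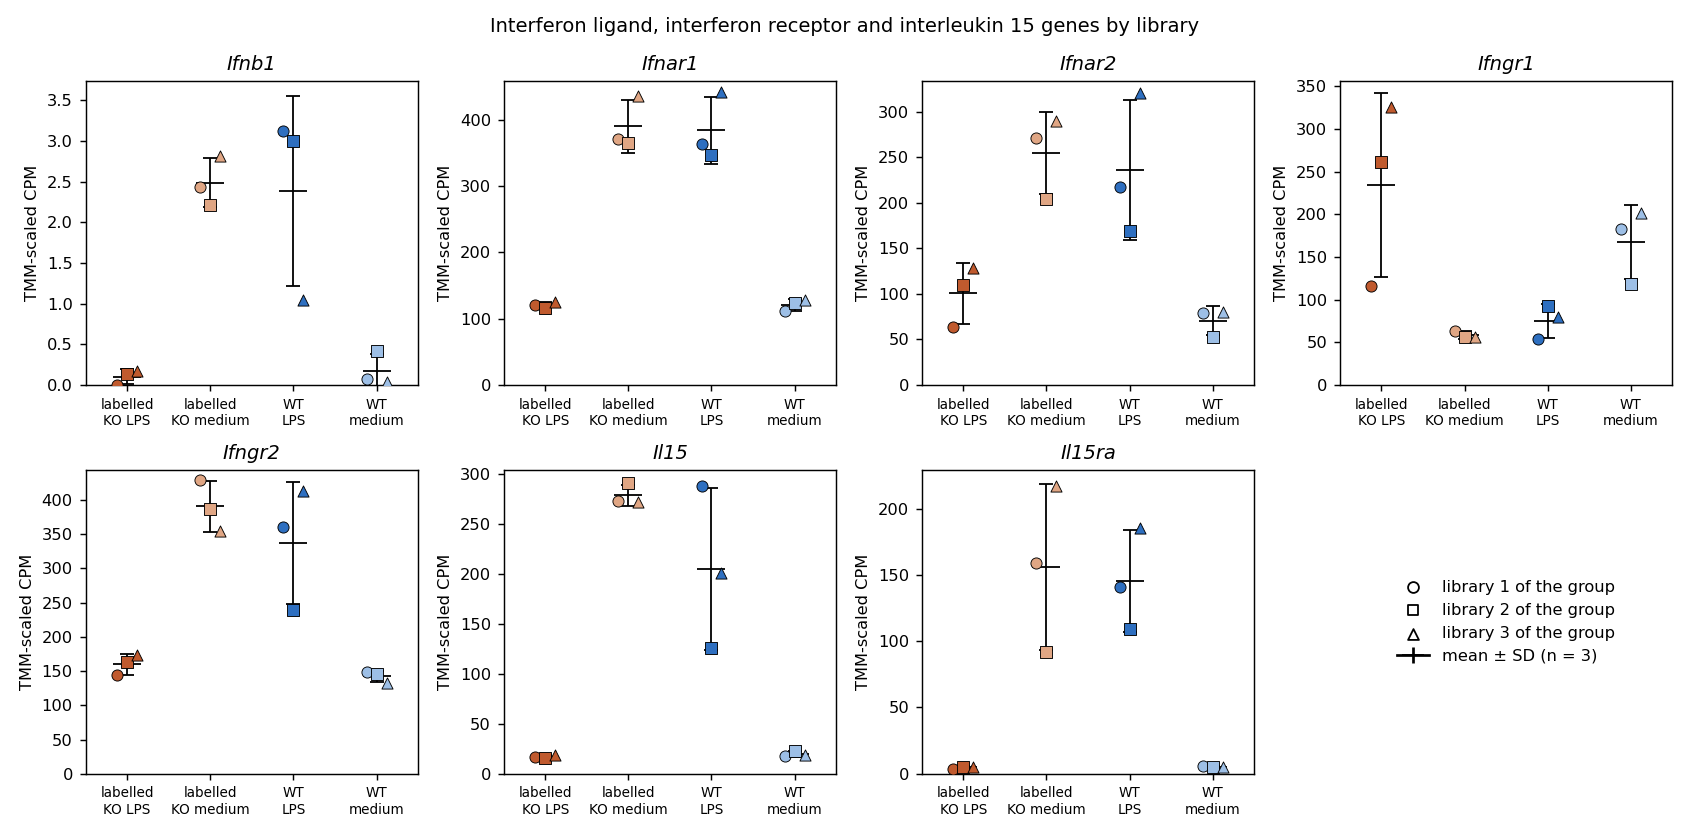
Level of each of the 7 genes in TMM-scaled CPM (vertical axes, linear from 0) in the 4 label groups. Points are libraries and the bar is the mean with its SD (n = 3); for 6 genes the libraries labelled KO medium and those of WT LPS are high, while Ifngr1 is low in them.

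With LPS, WT macrophages had more mRNA of interferon beta, of both type I interferon receptor chains, of the second interferon gamma receptor chain and of interleukin 15 with its alpha receptor, and less mRNA of Ifngr1. A gene was called where the edgeR quasi-likelihood test gave a Benjamini-Hochberg adjusted p under 0.05 over all 13773 genes tested. In WT LPS against WT medium 6 of 7 members were called higher and 1 lower, while 11.9% of all genes tested were called higher and 6.46% lower. The median log2 fold of the 7 was 1.74, beside −0.06 over all genes. Ifnb1 passed the filter on low counts through the groups in which it was high, so its call was built into the filter and is given as a description. Of 48 markers of other cells tested in the same comparison, 4 were called higher and 0 lower, beside those 11.9% and 6.46% of all genes. Named after their values were seen, these were S100a8 and Camp of neutrophils (log2 2.27 and 2.42), Lck of T cells (2.98) and Pdgfrb of stromal cells (2.22), while of 12 macrophage markers Mrc1 was called lower (−1.48) and 0 higher. Of the 11 neutrophil markers tested, Retnlg (−3.36), Mpo (−0.90), Elane (−0.87) and Mmp8 (−0.29) had negative log2 folds without a call. The other neutrophil markers had positive ones. Neutrophil markers summed to 1016 to 5792 scaled CPM in libraries labelled KO LPS, 1611 to 3976 in those labelled KO medium, 1320 to 5386 in WT LPS and 671 to 927 in WT medium, with 0 of 12 at 0. Stromal markers summed to 25.1 to 67.9 scaled CPM in libraries labelled KO LPS, 58.9 to 172 in those labelled KO medium, 51.9 to 338 in WT LPS and 45.8 to 85.8 in WT medium. The part of such cells in the members' levels was not tested.

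The libraries labelled KO had the opposite pattern. In the libraries labelled KO LPS against those labelled KO medium, 1 member was called higher and 6 lower, with 15.1% of all genes called higher and 15.3% lower. Against WT LPS, the libraries labelled KO LPS had 1 member higher and 6 lower, with 10.4% of all genes called higher and 13.7% lower. Against WT medium, the libraries labelled KO medium had 6 members higher and 1 lower, with 14% of all genes called higher and 12.3% lower. The medians of the 7 log2 folds were −1.69, −1.67 and 1.85 in those 3 comparisons, beside 0.04, 0.06 and −0.02 over all genes. In each of the 4 comparisons the libraries of the 2 groups did not overlap for 7 of 7 members. Over all genes tested this held for 33.9% in WT LPS against WT medium, 45.8% in KO LPS against KO medium, 38% in KO LPS against WT LPS and 42.6% in KO medium against WT medium. The comparisons share groups, so their counts do not add up as separate evidence. DESeq2 called 7 of 7 members in each of them, and called more of all genes: 14.6% higher and 11.1% lower in the WT comparison, 18.7% higher and 18.7% lower in KO LPS against KO medium, 14.6% and 17.2% in KO LPS against WT LPS and 16.7% and 16.8% in KO medium against WT medium.

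**Figure D2:**
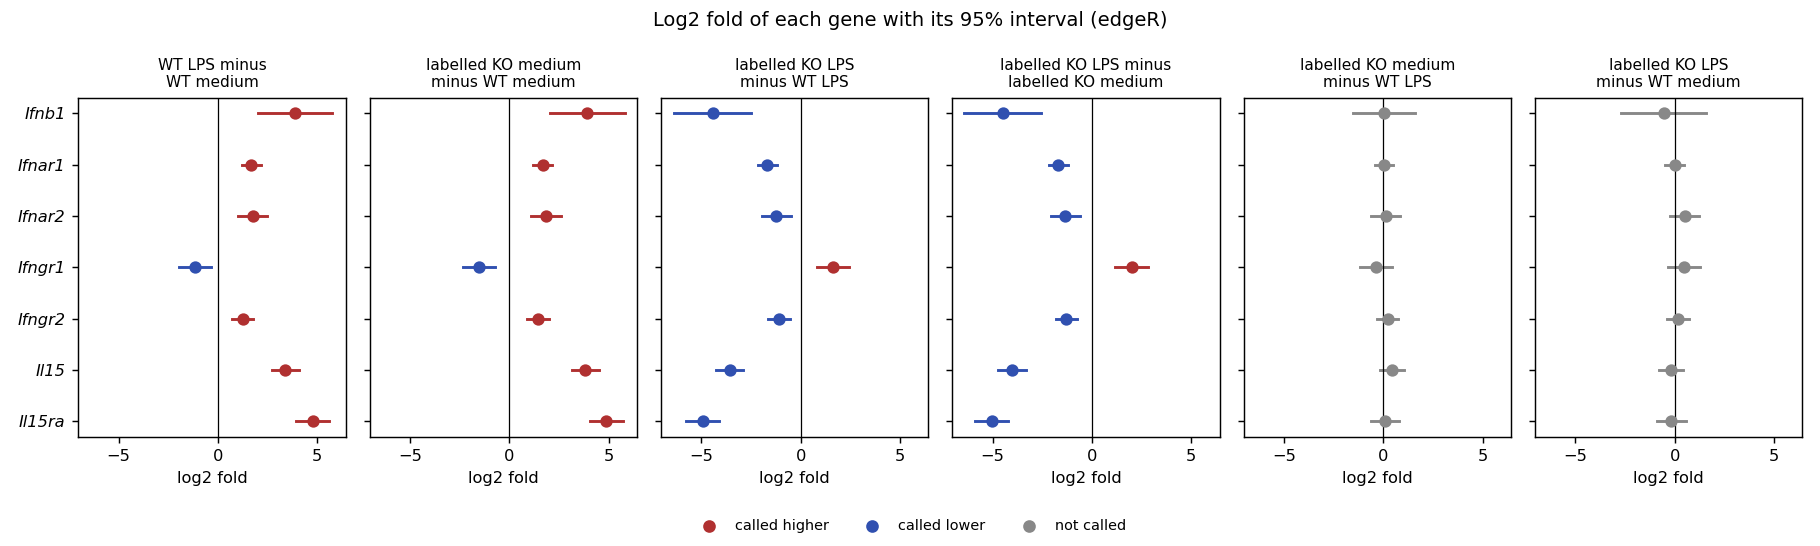
Log2 fold (horizontal axis, the group named first minus the other) with its 95% interval for each of the 7 genes in 6 comparisons, from edgeR. The first 4 panels show 7 of 7 genes called, with Ifngr1 opposite to the others, and the last 2 panels show 0 of 7 called.

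The scale of the libraries bears on these folds. The TMM factors ran from 0.7025 to 1.46 and differed by group, from 1.205 to 1.24 in the libraries labelled KO LPS and from 0.7025 to 0.791 in those labelled KO medium. With libraries scaled by size alone, the median of all genes moved to −0.64 in WT LPS against WT medium, to 0.78 in KO LPS against KO medium, to 0.57 in KO LPS against WT LPS and to −0.85 in KO medium against WT medium. The number of genes higher and lower was then 1033 and 3200, against 1636 and 890 with TMM, in the WT comparison. It was 5317 and 1177 against 2082 and 2104 in KO LPS against KO medium, 3487 and 1194 against 1435 and 1889 in KO LPS against WT LPS, and 1070 and 5574 against 1932 and 1688 in KO medium against WT medium. The members kept their directions in these 4 comparisons under that scaling, and the calls that ended are given with Ifnar2 and Ifngr2 below.

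Interferon beta was the only ligand among the 7 that binds an interferon receptor, and its mRNA was scarce. Ifnb1 stood at 0, 0.132 and 0.172 scaled CPM in libraries labelled KO LPS and at 2.44, 2.22 and 2.81 in those labelled KO medium. Its WT levels were 3.12, 3.01 and 1.04 scaled CPM with LPS and at 0.0757, 0.416 and 0.0417 in medium. The libraries labelled KO medium and the WT LPS libraries were thus high, and the other 6 were near or below the level of 3 counts, with the exception of WT medium 2. WT LPS 3 was the lowest of the high libraries. The summed counts behind these levels were 7 in the libraries labelled KO LPS, 86 in those labelled KO medium, 114 in WT LPS and 9 in WT medium. Divided by library totals without TMM factors, these sums made Ifnb1 11.8 times as high in WT LPS as in WT medium. The 95% exact interval was 6.02 to 26.5, which covers counting error only. On the same basis, the libraries labelled KO LPS had 0.0608 times the level of WT LPS (0.0239 to 0.129). Those labelled KO medium had 9.96 times the level of WT medium (5.01 to 22.5). These 3 ratios therefore differ in scaling from the scaled CPM above and from the fitted folds. The fitted log2 fold in WT was 3.87 ± 0.86 (SE), with a Benjamini-Hochberg adjusted p = 0.00892 (edgeR). It was −4.48 ± 0.89 in KO LPS against KO medium, −4.42 ± 0.88 in KO LPS against WT LPS and 3.93 ± 0.86 in KO medium against WT medium, with Benjamini-Hochberg adjusted p between 0.00329 and 0.00649 (edgeR). Of the 9 counts in WT medium, 6 came from WT medium 2. Without it the log2 fold was 5.14 in WT and 5.18 in KO medium against WT medium. With the number in the libraries' description codes as a block it was −3.31 in KO LPS against WT LPS and 5.12 in KO medium against WT medium.

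Ifnb1 is a gene of 1 transcript on chromosome 4 (GENCODE M21, build GRCm38, 88522025 to 88522774, minus strand). Its promoter is shown because induction of this gene by NF-kappaB and interferon regulatory factors is the textbook case of a composite enhancer. The 250 bases before the RefSeq start (GRCm38.p6, chr4:88522795-88523044, minus strand) held a kappaB-like match, in capitals, which begins 115 bases before the start:
Ifnb1 promoter: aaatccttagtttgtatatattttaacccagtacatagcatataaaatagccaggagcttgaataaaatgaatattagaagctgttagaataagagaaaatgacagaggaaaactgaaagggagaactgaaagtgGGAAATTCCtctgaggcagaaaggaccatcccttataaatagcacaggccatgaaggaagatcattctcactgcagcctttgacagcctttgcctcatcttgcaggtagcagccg
The pattern searched was GGANNTTCC on both strands, and this match reads the same on both. It occurs in 3.58% of 32817 mouse promoters of the same length. Neither the core of the interferon-stimulated response element (ISRE), GAAANNGAA, nor the gamma-activated site TTCNNNGAA was found there, and these patterns occur in 7.12% and 7.02% of promoters. The ISRE pattern is strict, and sites of interferon regulatory factors with other letters or spacing would be missed. Its absence does not mean that the window lacks such sites. A match is a description of letters and does not show binding.

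Apart from Ifng, the further interferons were close to absent in these libraries. Of 20 further interferon ligand genes, 13 had no count in any library and 1, Ifng, passed the filter. Of the alpha interferons, Ifna5 had the most, with 6 counts summed over the libraries labelled KO medium and 1 over WT LPS, and 0 in the other groups. Ifng had 4 counts over the libraries labelled KO LPS, 90 over those labelled KO medium, 112 over WT LPS and 1 over WT medium, about as many as Ifnb1. Its log2 fold with LPS in WT was 6.94 ± 1.56 (SE; edgeR, Benjamini-Hochberg adjusted p = 0.00940), and like that of Ifnb1 the call was built into the filter. WT LPS 3 and KO medium 3 held most of them, at 7.13 and 5.37 scaled CPM, against at most 1.82 in the other libraries of these groups. Markers of T and NK cells, which make interferon gamma, had summed levels of 12.0 to 187 scaled CPM in libraries labelled KO LPS, 43.9 to 81.5 in those labelled KO medium, 28.5 to 60.03 in WT LPS and 6.999 to 73.9 in WT medium, with 12 of 12 markers counted. Their part in the Ifng level was not tested.

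Both chains of the type I interferon receptor were higher in WT LPS than in WT medium. Ifnar1, the chain that brings TYK2, stood at 121, 116 and 125 scaled CPM in libraries labelled KO LPS and at 370.3, 364 and 436 in those labelled KO medium. In WT it stood at 364, 346.5 and 442 scaled CPM with LPS and at 111, 123 and 128 in medium. The libraries within each group lay close together, with SDs of 4.49 to 50.7, and the high and low groups were far apart. The level with LPS in WT was 3.18 times that in medium (95% interval 2.29 to 4.42; log2 1.67 ± 0.22 SE), with a Benjamini-Hochberg adjusted p = 0.000425 (edgeR). The log2 fold was −1.69 ± 0.22 in KO LPS against KO medium, −1.67 ± 0.22 in KO LPS against WT LPS and 1.69 ± 0.22 in KO medium against WT medium, with Benjamini-Hochberg adjusted p between 0.000306 and 0.000408 (edgeR). These calls held with any single library left out.

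Ifnar2, the chain that binds the ligand with high affinity and brings JAK1, varied more. It stood at 63.8, 109.6 and 129 scaled CPM in libraries labelled KO LPS and at 271, 204 and 289 in those labelled KO medium. Its WT levels were 217, 169.6 and 320.3 scaled CPM with LPS and at 78.8, 52.3 and 80.7 in medium. WT LPS 2 was the lowest library with LPS in WT, and KO LPS 1 the lowest of those labelled KO LPS. The log2 fold with LPS in WT was 1.74 ± 0.34 (SE), with a Benjamini-Hochberg adjusted p = 0.00472 (edgeR). In KO LPS against WT LPS it was −1.23 ± 0.34, with a Benjamini-Hochberg adjusted p = 0.0210 (edgeR), and this call ended without KO LPS 2 (0.0641), without WT LPS 3 (0.0814), without KO LPS 2 and 3 together (0.0686), with these 2 groups fitted alone (0.0526) and with size scaling alone (log2 −0.69, adjusted p = 0.150). In KO LPS against KO medium the log2 fold was −1.34 ± 0.34, with a Benjamini-Hochberg adjusted p = 0.0116 (edgeR), and −0.60 with size scaling alone (adjusted p = 0.184). In KO medium against WT medium it was 1.85 ± 0.34, with a Benjamini-Hochberg adjusted p = 0.00265 (edgeR).

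Per gene length, the receptor chains were present in similar amounts. The FPKM of Ifnar2 divided by that of Ifnar1, each with 0.1 added, averaged 1.43 in the libraries labelled KO LPS, 1.16 in those labelled KO medium, 1.06 in WT LPS and 1.03 in WT medium (geometric means, n = 3 each). The groups overlapped. The log2 difference was 0.05 between WT LPS and WT medium, with a two-sided exact permutation p = 0.9, and 0.42 between KO LPS and WT LPS (exact p = 0.3), where the smallest p that 3 against 3 libraries allow is 0.1. Ifnar2 lies on chromosome 16 (91372783 to 91405589, plus strand) and its exons overlap those of the read-through model Gm21970, which was listed at 0 counts in every library. Ifnar1 (91485238 to 91507441) and Ifngr2 (91547072 to 91565623) follow it on the same strand.

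The 2 chains of the interferon gamma receptor went in opposite directions, and Ifngr1 was the member that was lower in WT LPS. Ifngr1, the ligand-binding chain, stood at 116, 261 and 326 scaled CPM in libraries labelled KO LPS and at 63.7, 56.3 and 56.1 in those labelled KO medium. In WT it stood at 53.5, 92.6 and 80.0 scaled CPM with LPS and at 183, 119 and 202 in medium. KO LPS 2 and 3 were the highest of the 12 libraries, and KO LPS 1 lay at the level of the lowest WT medium library. With LPS in WT, Ifngr1 fell by 1.16 ± 0.37 on the log2 scale (95% interval −1.96 to −0.35), with a Benjamini-Hochberg adjusted p = 0.0486 (edgeR). This call ended without WT LPS 1 (adjusted p = 0.133), WT LPS 3 (0.117), WT medium 1 (0.129) or WT medium 3 (0.148), by the same edgeR test with Benjamini-Hochberg adjustment, and with the WT libraries fitted alone (0.0638). The log2 fold was −1.52 ± 0.37 in KO medium against WT medium, with a Benjamini-Hochberg adjusted p = 0.0116 (edgeR), and this call held with any single library left out.

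In the libraries labelled KO LPS, Ifngr1 was higher than in WT LPS by 1.64 ± 0.37 on the log2 scale (edgeR, Benjamini-Hochberg adjusted p = 0.00883) and higher than in those labelled KO medium by 1.997 ± 0.38 (edgeR, Benjamini-Hochberg adjusted p = 0.00258). Without libraries 2 and 3 labelled KO LPS these log2 folds were 0.62 and 0.98, and neither was called (edgeR, Benjamini-Hochberg adjusted p = 0.436 and 0.174). That fit leaves 1 library labelled KO LPS, which is assumed to vary like the other groups. Libraries 2 and 3 also had neutrophil markers at 4664 and 5792 scaled CPM, against 1016 in library 1, and plasmacytoid dendritic cell markers at 48.1 and 53.8, against 7.75 in library 1. In WT LPS 3, neutrophil markers summed to 5386 scaled CPM while Ifngr1 stood at 80.0. In bulk RNA, fewer cells of a type and less RNA per cell cannot be told apart, and the part of other cells in the Ifngr1 level was not tested. Ifngr1 was also higher in the libraries that carried Xist: it averaged 293 scaled CPM in 2 such libraries labelled KO LPS, against 116 in the third, 92.6 in 1 against 66.8 in 2 of WT LPS, and 192 in 2 against 119 in 1 of WT medium. With Xist as a block, the log2 fold of Ifngr1 with LPS in WT was −0.85 (edgeR, Benjamini-Hochberg adjusted p = 0.0250). The same block gave 1.34 in KO LPS against KO medium and −0.93 in KO medium against WT medium, both called (edgeR, Benjamini-Hochberg adjusted p = 0.00454 and 0.0259). No library labelled KO medium carried Xist, so Xist and group are partly confounded in both. The block there assumes that the Xist difference is the same in every group. Whether Xist, the mix of cells or another difference between these libraries moved Ifngr1 was not tested.

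Ifngr2, the chain that brings JAK2 to the receptor, stood at 144, 163 and 174 scaled CPM in libraries labelled KO LPS and at 429.5, 387.5 and 355 in those labelled KO medium. Its WT levels were 360.4, 239 and 413 scaled CPM with LPS and at 149, 145.5 and 133 in medium. The low groups were tight, and WT LPS 2 was the lowest of the high libraries. Ifngr2 rose with LPS in WT by 1.24 ± 0.25 on the log2 scale (edgeR, Benjamini-Hochberg adjusted p = 0.00533). Its log2 fold was −1.29 ± 0.25 in KO LPS against KO medium, −1.08 ± 0.25 in KO LPS against WT LPS and 1.46 ± 0.25 in KO medium against WT medium, with Benjamini-Hochberg adjusted p of 0.00296, 0.00926 and 0.00177 (edgeR). With size scaling alone the log2 folds were 0.62 with LPS in WT, −0.54 in KO LPS against KO medium and −0.54 in KO LPS against WT LPS, and these calls ended (edgeR, Benjamini-Hochberg adjusted p = 0.0503, 0.0624 and 0.0766). Without libraries 2 and 3 labelled KO LPS the calls against KO medium (log2 −1.44, adjusted p = 0.0689) and WT LPS (log2 −1.23, adjusted p = 0.124) ended too, by the same edgeR test with Benjamini-Hochberg adjustment.

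The ratio of the interferon gamma receptor chains separated the libraries labelled KO LPS and WT medium from those labelled KO medium and WT LPS. Per gene length, Ifngr2 divided by Ifngr1 was 0.940, 0.472 and 0.403 in the libraries labelled KO LPS and 5.07, 5.17 and 4.76 in those labelled KO medium. It was 5.06, 1.95 and 3.89 in WT LPS and 0.616, 0.926 and 0.499 in WT medium. Ifngr1 was thus the more abundant transcript in the 6 libraries of KO LPS and WT medium, and Ifngr2 in the other 6, without overlap. The geometric means were 0.563 and 5.00 in the libraries labelled KO LPS and KO medium and 3.37 and 0.658 in WT LPS and WT medium. The log2 difference was 2.36 between WT LPS and WT medium, −3.15 between KO LPS and KO medium, −2.58 between KO LPS and WT LPS and 2.93 between KO medium and WT medium. Each had a two-sided exact permutation p = 0.1, the smallest that 3 against 3 libraries allow. A ratio within a library does not depend on how libraries are scaled.

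**Figure D3:**
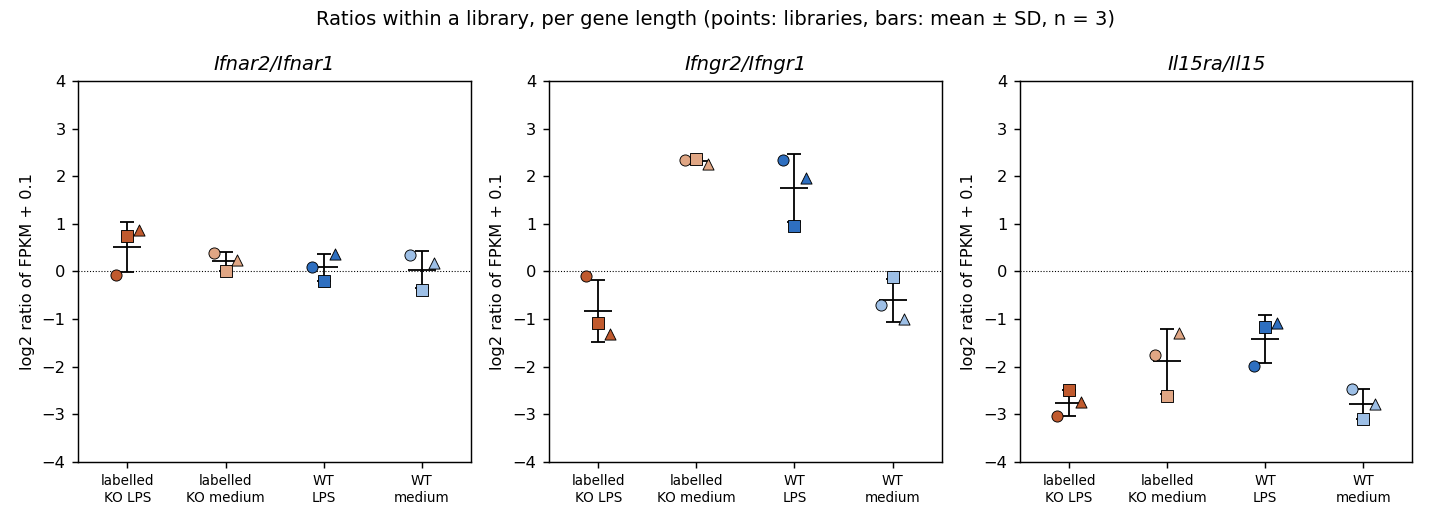
Log2 ratio of 2 members within a library, from FPKM + 0.1 (vertical axis), for Ifnar2/Ifnar1, Ifngr2/Ifngr1 and Il15ra/Il15 in the 4 label groups. Points are libraries and bars the mean with its SD (n = 3). For Ifngr2/Ifngr1, KO LPS and WT medium lie below KO medium and WT LPS, and the groups within each pair overlap. The groups overlap for Ifnar2/Ifnar1, and for Il15ra/Il15 KO medium 2 lies among the libraries of KO LPS and WT medium.

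Ifngr1 is on chromosome 10 (19591949 to 19610229, plus strand), away from the receptor cluster on chromosome 16. The promoters of these opposite-moving chains are shown together, 250 bases before the RefSeq start (GRCm38.p6), with a kappaB-like match of the minus strand in capitals. Ifngr1 is at chr10:19591699-19591948, plus strand, and Ifngr2 at chr16:91546809-91547058, plus strand:
Ifngr1 promoter: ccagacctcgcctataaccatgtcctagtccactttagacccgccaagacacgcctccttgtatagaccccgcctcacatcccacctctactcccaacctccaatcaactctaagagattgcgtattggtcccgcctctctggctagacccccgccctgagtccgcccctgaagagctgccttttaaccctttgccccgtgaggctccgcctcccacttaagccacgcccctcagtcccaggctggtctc
Ifngr2 promoter: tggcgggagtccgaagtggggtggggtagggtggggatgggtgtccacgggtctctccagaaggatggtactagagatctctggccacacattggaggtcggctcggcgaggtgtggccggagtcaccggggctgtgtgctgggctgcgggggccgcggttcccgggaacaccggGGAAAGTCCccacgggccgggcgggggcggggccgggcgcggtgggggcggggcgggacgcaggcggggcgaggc
None of the 3 patterns was found in the Ifngr1 window, and Ifngr2 held the 1 kappaB-like match, 75 bases before the start. The GC content was 59.2% for Ifngr1 and 74.0% for Ifngr2. Of the other receptor genes, Ifnar2 held a gamma-activated site pattern 214 bases before its start, and Ifnar1 held none wholly upstream. In the window that reaches past the start, Ifnar1 held a gamma-activated site pattern that begins 5 bases before the start. A missing match says only that these letters are not in this window.

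The interleukin 15 pair was scarce in WT medium and abundant in WT LPS, and Il15ra had the largest log2 fold of the 7 genes there. Il15 stood at 16.6, 16 and 19.0 scaled CPM in libraries labelled KO LPS and at 273, 290.5 and 272 in those labelled KO medium. In WT it stood at 288, 126 and 201 scaled CPM with LPS and at 17.8, 22.7 and 18.4 in medium. The low libraries lay within a narrow band, and WT LPS was the most uneven group, with library 2 lowest. In WT, the level with LPS was 10.4 times that in medium (95% interval 6.53 to 16.7; log2 3.38 ± 0.31 SE; edgeR, Benjamini-Hochberg adjusted p = 5.63e-05). The log2 fold was −4.02 ± 0.32 in KO LPS against KO medium, −3.57 ± 0.31 in KO LPS against WT LPS and 3.83 ± 0.32 in KO medium against WT medium, with Benjamini-Hochberg adjusted p between 1.85e-05 and 3.41e-05 (edgeR). Il15 lies on chromosome 8 (82331632 to 82403222, minus strand) and has 10 annotated transcripts, 4 of them protein-coding, which gene counts do not separate.

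Il15ra, which carries interleukin 15 to the cell surface, stood at 3.67, 5.32 and 5.25 scaled CPM in libraries labelled KO LPS and at 159, 91.9 and 217 in those labelled KO medium. Its WT levels were 141, 109 and 186 scaled CPM with LPS and at 6.09, 4.85 and 4.97 in medium. The lowest of the 6 high libraries stood at 91.9 scaled CPM and the highest of the 6 low ones at 6.09. The level with LPS in WT was 27.4 times that in medium (95% interval 15.4 to 48.5; log2 4.77 ± 0.38 SE; edgeR, Benjamini-Hochberg adjusted p = 2.52e-05). The log2 fold was −5.03 ± 0.38 in KO LPS against KO medium, −4.93 ± 0.38 in KO LPS against WT LPS and 4.87 ± 0.38 in KO medium against WT medium, with Benjamini-Hochberg adjusted p between 1.76e-05 and 2.22e-05 (edgeR). For both genes every call in these 4 comparisons held with any single library left out and with size scaling alone, and the 2 comparisons that use KO LPS also held without libraries 2 and 3 labelled KO LPS.

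Per gene length, the receptor transcript stayed below that of its ligand in every library. Il15ra divided by Il15 was 0.122, 0.178 and 0.149 in the libraries labelled KO LPS and 0.297, 0.162 and 0.406 in those labelled KO medium. It was 0.250, 0.444 and 0.471 in WT LPS and 0.182, 0.117 and 0.144 in WT medium. WT LPS was above WT medium in 3 of 3 libraries, whereas KO medium 2 lay among the libraries of the low groups. The log2 difference was 1.37 between WT LPS and WT medium (two-sided exact permutation p = 0.1, the smallest allowed) and 0.89 between KO medium and WT medium (exact p = 0.2).

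Il15ra is on chromosome 2 (11705290 to 11734317, plus strand) with 18 annotated transcripts, 11 of them protein-coding, and the RefSeq table has 2 starts for it. Its sequences are shown because it was the called member with the largest fold and the 1 with an ISRE core pattern near both starts. The 250 bases before start 1 (GRCm38.p6, chr2:11705043-11705292, plus strand) held the pattern on the minus strand, 149 bases before the start. No match lay in the 250 bases before start 2, but 1 began 31 bases after it (chr2:11705732-11705759, plus strand), in a window that reached 50 bases past the start and was added after the data were seen. The capitals mark the matches:
Il15ra promoter, start 1: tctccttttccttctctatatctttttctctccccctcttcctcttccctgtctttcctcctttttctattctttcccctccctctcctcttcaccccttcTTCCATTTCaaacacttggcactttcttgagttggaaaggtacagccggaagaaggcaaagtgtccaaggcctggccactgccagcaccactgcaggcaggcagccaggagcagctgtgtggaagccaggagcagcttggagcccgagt
Il15ra site after start 2: aagcaaaagcGAAAGCGAAtactcctta
The ISRE core pattern occurs in 7.12% of windows of 250 bases and in 8.55% of windows of 300 bases. RefSeq promoter entries matched 6 of the 7 members, and Il15 was not among them.

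Compared per gene length, the order of the 7 transcripts differed between the groups. In the libraries labelled KO LPS, Ifngr1 came first with a mean of 101 FPKM, before Ifngr2 (52.1), Ifnar2 (37.2), Ifnar1 (24.9), Il15 (9.33), Il15ra (1.31) and Ifnb1 (0.167). In those labelled KO medium, Il15 came first with 90.2 FPKM, before Ifngr2 (75.7), Ifnar2 (56.4), Ifnar1 (48.4), Il15ra (26.1), Ifngr1 (15.1) and Ifnb1 (2.44). In WT LPS the mean FPKM was 75.8 for Ifngr2, 75.5 for Il15, 60.2 for Ifnar2, 55.7 for Ifnar1, 27.8 for Il15ra, 23.5 for Ifngr1 and 2.80 for Ifnb1. In WT medium it was 78.9 for Ifngr1, 49.2 for Ifngr2, 28.3 for Ifnar2, 26.6 for Ifnar1, 11.2 for Il15, 1.56 for Il15ra and 0.276 for Ifnb1. Neighbours in this order whose libraries overlapped were Ifnar2 and Ifnar1 in all 4 groups and Ifngr1 and Ifngr2 in the libraries labelled KO LPS and in WT medium. In the libraries labelled KO LPS, Ifngr2 and Ifnar2 overlapped too. In WT LPS, Ifngr2, Il15 and Ifnar2 each overlapped the next in the order, while Ifnar1 was apart from Il15ra. Il15ra overlapped Ifngr1 in WT LPS and in the libraries labelled KO medium. Ifnb1 was last in every group, apart from its neighbour in each.

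Because Nlrc3 in the libraries labelled KO LPS and Nos2 in both KO groups went against the labels, the libraries labelled KO medium were also set against WT LPS, and those labelled KO LPS against WT medium. These comparisons were chosen with earlier results of these data known. In KO medium against WT LPS, 0 of 7 members were called higher or lower by edgeR, where 0% of all genes were called in either direction. At an unadjusted p under 0.05 the count was 0 of 7 members and 270 of all genes, and DESeq2 called 0 genes. The log2 folds lay between −0.36 for Ifngr1 (95% interval −1.16 to 0.44) and 0.44 for Il15 (−0.17 to 1.06), and Ifnar1 was at 0.02 (−0.44 to 0.49). In KO LPS against WT medium, 0 of 7 members were called by edgeR, with 0% of all genes called in either direction. There the unadjusted count was 0 of 7 members and 1135 of all genes, while DESeq2 called 37 genes higher and 4 lower, 0.269% and 0.029% of all genes, with 0 members among them. Without KO LPS 1, edgeR called 140 genes higher and 105 lower, again with 0 members. The log2 folds lay between −0.55 for Ifnb1 (−2.68 to 1.59) and 0.51 for Ifnar2 (−0.21 to 1.24), and Il15ra was at −0.16 (−0.88 to 0.56). The libraries of both groups overlapped for 7 of 7 members in both comparisons, where 5.47% of all genes did not overlap in KO medium against WT LPS and 10.6% in KO LPS against WT medium. These intervals bound the differences and do not show that the groups were alike: Ifnb1, with the fewest counts, had the widest.

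The response to LPS was also compared between the label groups by the interaction, the LPS fold in the libraries labelled KO minus that in WT. It was called for 7 of 7 members, 1 higher and 6 lower, with Ifnb1 again called through the filter, while 20.5% of all genes were called higher and 20.6% lower. Ifngr1 was the member with the higher interaction, at 3.15 ± 0.53 on the log2 scale (edgeR, Benjamini-Hochberg adjusted p = 0.000609). Il15ra had the lowest, at −9.81 ± 0.54 (edgeR, Benjamini-Hochberg adjusted p = 3.99e-07). With size scaling alone the interaction was called higher for 6597 genes and lower for 1538, against 2825 and 2832 with TMM, and the median of all genes was 1.43 against 0.11. The size of the members' difference follows from opposite folds in the libraries labelled KO and in WT, as given gene by gene above.

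**Figure D4:**
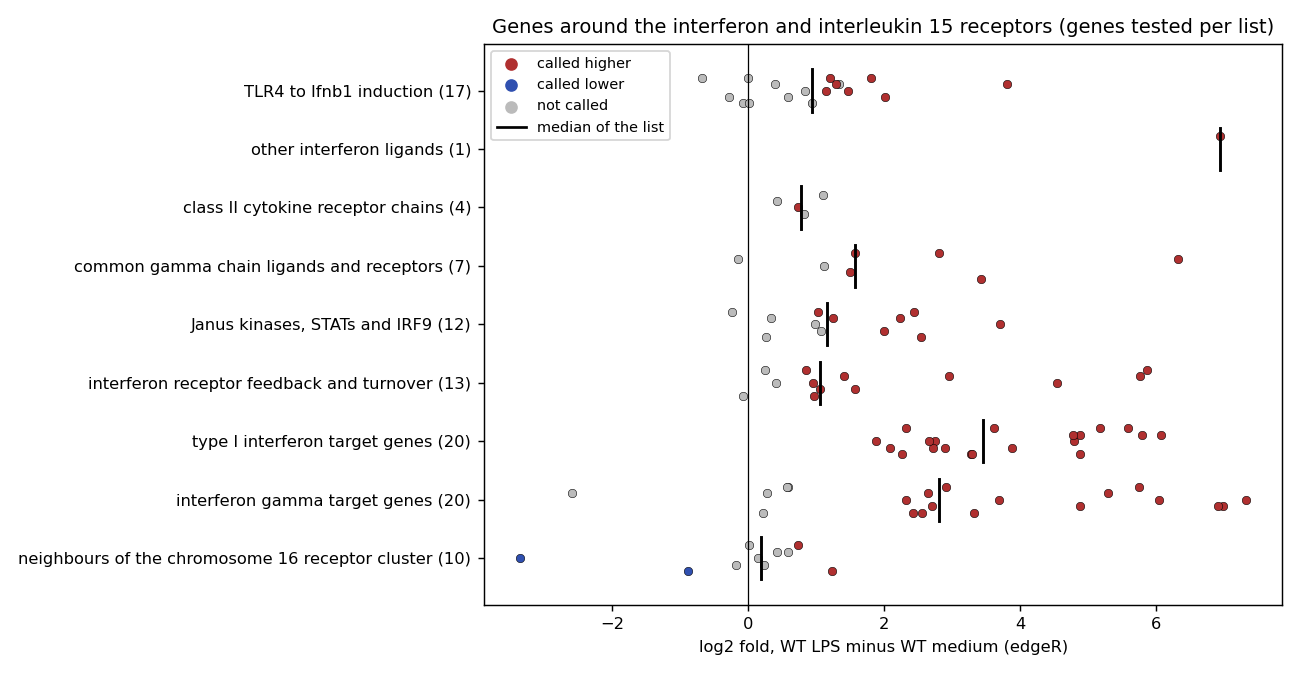
Log2 fold, WT LPS minus WT medium (horizontal axis, edgeR), of each tested gene of 9 lists around the members. Each point is a gene, coloured by its call, the black bar is the median of the list and the number in brackets is how many genes were tested; both interferon target lists lie furthest to the right, apart from the single further ligand tested. With size scaling alone the median of all genes is −0.64 and that of the chromosome 16 neighbours becomes −0.41.

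The machinery that leads to Ifnb1 and the machinery behind the receptors was read from lists of related genes. The list counts below stand beside the shares of all genes tested. These were 11.9% higher and 6.46% lower with LPS in WT, 10.4% and 13.7% in KO LPS against WT LPS and 14% and 12.3% in KO medium against WT medium. Of 17 genes from TLR4 to Ifnb1, 7 rose with LPS in WT and 0 fell, with a median log2 fold of 0.95, beside −0.06 over all genes. Irf7, which amplifies type I interferon production, rose by 3.80 ± 0.44 and Tbk1, the kinase that activates IRF3, by 1.46 ± 0.25 (log2 ± SE; edgeR, Benjamini-Hochberg adjusted p = 0.000206 and 0.00204). Irf3 itself had a log2 fold of −0.08 and Tlr4 of −0.68 and neither was called (edgeR, Benjamini-Hochberg adjusted p = 0.844 and 0.301); both were picked after their values were seen. Of the 17, 0 were higher in KO LPS against WT LPS and 7 lower, and in KO medium against WT medium 9 were higher and 0 lower. Scaling by size alone gave counts in WT of 3 higher and 1 lower, in KO LPS against WT LPS 1 and 4 and in KO medium against WT medium 4 and 3. Tbk1 stood at 83.9, 61.4 and 62.0 scaled CPM in libraries labelled KO LPS, 236, 249.6 and 312 in those labelled KO medium, 248, 199.9 and 287 in WT LPS and 93.9, 77.0 and 95.4 in WT medium.

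Of 12 Janus kinases, STATs and IRF9, 7 rose with LPS in WT and 0 fell, with a median log2 fold of 1.16. Over all genes tested, 11.9% were called higher and 6.46% lower there. Jak2, which serves IFNGR2, rose by 3.70 ± 0.39 (log2 ± SE; edgeR, Benjamini-Hochberg adjusted p = 0.000131). Jak1, which serves both interferon receptors and the interleukin 15 receptor, had a log2 fold of 0.33 ± 0.36 and was not called (edgeR, Benjamini-Hochberg adjusted p = 0.574); it was picked after its value was seen. Of the 12, 0 were higher in KO LPS against WT LPS and 5 lower, and in KO medium against WT medium 6 were higher and 0 lower. By size scaling alone, 5 were higher and 0 lower in WT, 0 and 4 in KO LPS against WT LPS and 5 and 1 in KO medium against WT medium. Of 13 genes of receptor feedback and turnover, 10 rose with LPS in WT and 0 fell, with a median of 1.06. Socs1 and Socs3, inhibitors of Janus kinases, rose by 5.86 ± 0.59 and 5.75 ± 0.59 (log2 ± SE; edgeR, Benjamini-Hochberg adjusted p = 9.35e-05 and 0.000103). Of the 13, 0 were higher in KO LPS against WT LPS and 8 lower, and in KO medium against WT medium 10 were higher and 0 lower. These counts were 3 and 0 in WT, 0 and 4 and 6 and 1 with size scaling alone.

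Most target genes of both interferons were higher with LPS in WT, where 11.9% of all genes tested were called higher and 6.46% lower. Of 20 type I interferon targets, 20 rose with LPS in WT, with a median log2 fold of 3.45. Ifit2, an inhibitor of translation of viral RNA, rose by 4.79 ± 0.38 and Cmpk2, a mitochondrial nucleotide kinase, by 5.79 ± 0.48 (log2 ± SE; edgeR, Benjamini-Hochberg adjusted p = 2.48e-05 and 3.18e-05). Of the 20, 20 were lower in KO LPS against WT LPS and 20 higher in KO medium against WT medium, and with size scaling alone 20 were higher in WT, 19 lower in KO LPS against WT LPS and 18 higher in KO medium against WT medium. Of 20 interferon gamma targets, 15 rose with LPS in WT and 0 fell, with a median of 2.81, and 15 were lower in KO LPS against WT LPS and 15 higher in KO medium against WT medium, the same counts as with size scaling alone, which adds 1 gene in the other direction each time. Gbp2 and Gbp3, guanylate-binding proteins that act against intracellular microbes, rose by 5.74 ± 0.45 and 5.29 ± 0.45 (log2 ± SE; edgeR, Benjamini-Hochberg adjusted p = 2.48e-05 and 3.44e-05). Ciita, the transactivator of class II antigen presentation genes, was picked after its values were seen, as the 1 interferon gamma target with a called higher interaction, at 4.99 ± 1.28 (edgeR, Benjamini-Hochberg adjusted p = 0.00841). It stood at 5.03, 43.9 and 65.4 scaled CPM in libraries labelled KO LPS, 5.19, 10.9 and 5.71 in those labelled KO medium, 10.3, 5.03 and 2.90 in WT LPS and 59.2, 6.31 and 43.7 in WT medium. Like Ifngr1, it was highest in KO LPS 2 and 3 and in WT medium 1 and 3, the libraries of these groups that carried Xist. In WT LPS the 2 genes differed: WT LPS 2, which carried Xist, had less Ciita than WT LPS 1 but the most Ifngr1 of its group (92.6 scaled CPM). KO LPS 2 and 3 also had the highest B cell markers, at 254 and 342 scaled CPM. The part of Xist or of other cells in the Ciita level was not tested.

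Of 12 further ligand and receptor genes of the common gamma chain family, 7 were tested. With LPS in WT 5 rose and 0 fell, beside 11.9% and 6.46% of all genes, and the median log2 fold was 1.57. Only Il2rg and Il2rb among the tested genes are chains of the interleukin 15 receptor. The levels are those of the macrophage cultures, not of cells chosen as receivers of interleukin 15. Il4ra and Il2ra, the alpha receptors of interleukins 4 and 2, rose by 3.41 ± 0.34 and 6.32 ± 0.86 (log2 ± SE; edgeR, Benjamini-Hochberg adjusted p = 8.62e-05 and 0.000531). Il2rg, the common gamma chain itself, had a log2 fold of 1.49 with a Benjamini-Hochberg adjusted p = 0.00436, and Il2rb, the beta chain that interleukin 15 needs, of 1.11 with an adjusted p = 0.554 (edgeR); both were picked after their values were seen. Il2rb stood at 0.524, 5.76 and 12.1 scaled CPM in libraries labelled KO LPS, 1.41, 0.202 and 4.43 in those labelled KO medium, 1.04, 4.09 and 7.06 in WT LPS and 4.199, 0.347 and 1.00 in WT medium. The groups overlapped. Of the 7, 0 were higher in KO LPS against WT LPS and 5 lower, and in KO medium against WT medium 5 were higher and 0 lower. Under size scaling alone, 3 were higher and 0 lower in WT, 0 and 3 in KO LPS against WT LPS and 3 and 1 in KO medium against WT medium. The call of Il2rg with LPS in WT ended under that scaling (log2 0.895, edgeR, Benjamini-Hochberg adjusted p = 0.0575).

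Ifnar2, Il10rb, Ifnar1 and Ifngr2 lie in a row on chromosome 16, and the genes around them did not share 1 direction. Of 10 neighbours, 2 rose and 2 fell with LPS in WT, with a median log2 fold of 0.19, beside 11.9% and 6.46% of all genes. Counts of so few genes are given as a description. Tmem50b, which lies beside Ifngr2, rose by 1.24 ± 0.25 and Il10rb, a chain of the interleukin 10 receptor, by 0.74 ± 0.20 (log2 ± SE; edgeR, Benjamini-Hochberg adjusted p = 0.00566 and 0.0236). Dnajc28 fell by 3.35 ± 0.75 and Gart, an enzyme of purine synthesis, by 0.88 ± 0.27 (log2 ± SE; edgeR, Benjamini-Hochberg adjusted p = 0.00940 and 0.0420). Dnajc28 was scarce, at 0.520, 0.704 and 0.297 scaled CPM in WT LPS and 7.23, 1.18 and 7.51 in WT medium. It passed the filter on low counts through the groups in which it was higher, so its call was built into the filter and is given as a description. In KO LPS against WT LPS, 2 of the 10 were higher and 3 lower, beside 10.4% and 13.7% of all genes. In KO medium against WT medium 2 were higher and 1 lower, beside 14% and 12.3%. With size scaling alone 0 were higher and 2 lower in WT, the median became −0.41, and the calls of Tmem50b (log2 0.61) and Il10rb (0.14) ended. The log2 fold of Il10rb in KO medium against WT medium was 0.75 ± 0.20 with TMM and −0.08 with size scaling alone, so its direction flips. Il10rb is also 1 of 4 tested class II cytokine receptor chains outside the members, and it was the 1 called higher with LPS in WT.

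Genes whose pattern over the 12 libraries was most like a member's were ranked by the root-mean-square difference of log2 scaled CPM, each gene centred on its own mean. Among 9059 candidates, Ifngr2 had the closest likeness of the members, to Slc39a1 (0.107), Tmem50b (0.120) and Otud5 (0.123). Ifnar1 was most like Zc3hav1 (0.131), the zinc-finger antiviral protein, before Zswim4 (0.157) and Fbxw17 (0.159). Ifnar2 was most like Sbno2 (0.152), AB124611 (0.170) and Stau1 (0.173), and Ifngr1 most like Plcg1 (0.170), Arhgap45 (0.176) and Ctc1 (0.193). Il15 and Il15ra had looser likenesses. Il15 was near Car13 (0.291) and Igtp (0.296), an interferon-inducible GTPase, and Il15ra was nearest to Ifit2 (0.294), Slco3a1 (0.314) and Fpr1 (0.330). For Ifnb1, with 11908 candidates at a lower level, the nearest were Olfr433 (0.422), Kcnab1 (0.461) and H2-T10 (0.556). The measure describes these 12 libraries and says nothing of shared control.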

How the data were processed

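RNA was sequenced from 12 libraries of mouse bone marrow-derived macrophages, 3 for each label group. Per the labels' protocols, RNA was taken with TRIzol, and both a TruSeq and a KAPA Stranded kit are named, so the kit of a library is not known. Per the submitters' processing notes the build is mm10. No source used here names the aligner, counter, strand setting or annotation. The authors deposited raw counts, whole numbers of reads for each gene without normalization. The second table holds FPKM, computed by the authors; checked against the counts, these are the counts scaled by library total and gene length, to within 0.00198%, so they are not a separate measurement. There were 0 unused columns of per-sample values.

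The fit to the counts used edgeR 4.0.16 in R 4.3.3 (glmQLFit and glmQLFTest, TMM scaling, filterByExpr, 13773 genes, 1 mean per group over 12 libraries, Benjamini-Hochberg adjustment, threshold 0.05). Standard errors come from the F statistic. DESeq2 1.42.0 was an alternative. The edgeR step was tested on simulated data. Ratios between members use log2(FPKM + 0.1) and a two-sided exact permutation test (Python 3.11.15). Positions are 1-based, from GENCODE M21 (GRCm38); promoters are from RefSeq (GRCm38.p6). Because strand in counting is unknown, genes that overlap on opposite strands are uncertain.

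The members, lists, comparisons and rules were chosen with earlier results of these data known. The text names the 7 members, Nlrc3 with Nos2, from each list the 2 higher and 2 lower called genes with the smallest p, and the 3 genes most like each member among those with at least 5 scaled CPM on average (0.5 for Ifnb1; log2 with a prior count of 2); others are said to be picked after their values were seen. Results for 2 genes that this rule names are not reported here. Closest in counts were WT medium 1 and 3, at a chi-square per degree of freedom of 22.3, so no library was taken as a repeat of another. Correlations of deviations from group means ran from −0.63 to 0.567 between libraries with the same replicate number, so the numbers do not pair libraries, and no block entered the fit. Alternatives were another scaling, no filter, blocks, fits of 2 groups only, libraries left out and, for ratios, other pseudocounts. The Xist block, the wider promoter window and the fit without KO LPS 2 and 3 were added after the data were seen.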

Additional observations from a re-analysis of the deposited data

Results flagged for a closer look

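The LPS fold differed between the libraries labelled KO and WT for the members, by a test of the difference itself (the interaction, edgeR quasi-likelihood test). It was −8.35 for Ifnb1, which passed the filter on low counts through its high groups and is given as a description, −3.36 for Ifnar1, −3.08 for Ifnar2, 3.15 for Ifngr1, −2.53 for Ifngr2, −7.40 for Il15 and −9.81 for Il15ra, on the log2 scale. Benjamini-Hochberg adjusted p (edgeR) lay between 3.99e-07 for Il15ra and 0.000609 for Ifngr1. In each case the libraries labelled KO and the WT libraries went opposite ways with the LPS label, in 6 members down in KO and up in WT and in Ifngr1 up in KO and down in WT. For the 6 members other than Ifnb1 these calls held with each of the 12 libraries left out, and without KO LPS 2 and 3 together. Nlrc3 went against the label in the libraries labelled KO LPS and Nos2 in both KO groups, and whether a label, the genotype or another difference accounts for the interaction was not tested.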

How the results depend on the processing

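With libraries scaled by size alone, the members kept their directions in WT LPS against WT medium and in the 3 comparisons of KO LPS with KO medium, KO LPS with WT LPS and KO medium with WT medium. In WT LPS against WT medium the number of members called lower was 1, and 0 with a replicate block, 0 with these groups fitted alone and 0 to 1 with 1 library left out. With KO LPS 2 and 3 left out together, the number called higher was 0, against 1, in KO LPS against KO medium and in KO LPS against WT LPS. The member in each case was Ifngr1: with the replicate block its log2 fold with LPS in WT was −1.18 (edgeR, Benjamini-Hochberg adjusted p = 0.0587). The replicate numbers do not pair libraries, and WT LPS and WT medium libraries that share a number in their description code correlated at 0.593 and 0.456, a number the labels do not explain.

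Signs changed in 2 comparisons in which no member was called under any alternative, and in ratios. In KO medium against WT LPS, size scaling alone gave log2 folds of −0.198 for Ifnb1, −0.203 for Ifnar1, −0.0928 for Ifnar2, −0.00148 for Ifngr2 and −0.0921 for Il15ra. The block on code numbers gave −0.0252 for Ifnar1, −0.185 for Ifnar2 and −0.167 for Il15ra, and the Xist block −0.00317 for Ifnar1. With 1 library left out, Ifnb1 ranged from −0.318 to 0.261, Ifnar1 from −0.0555 to 0.118, Ifnar2 from −0.0781 to 0.383 and Il15ra from −0.207 to 0.346. In KO LPS against WT medium, the block on code numbers gave 0.648 for Ifnb1 and −0.0321 for Ifngr2, the replicate block 0.000138 for Ifnar1, and leaving out KO LPS 2 and 3 −0.152 for Ifnar2 and −0.544 for Ifngr1. With 1 library left out, Ifnb1 ranged there from −1.08 to 0.699 and Ifnar1 from −0.0572 to 0.041. The log2 difference of Ifnar2/Ifnar1 ranged from −0.164 to 0.202 in WT LPS against WT medium, from −0.0435 to 0.322 in KO medium against WT medium and from −0.0219 to 0.261 in KO medium against WT LPS. In KO LPS against WT medium it ranged from −0.592 to 0.0237 for Ifngr2/Ifngr1 and from −0.13 to 0.188 for Il15ra/Il15.

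Counts over all genes moved more. In WT LPS against WT medium 1384 to 3042 were called with 1 library left out, and the count was 1384 without WT LPS 3, 1493 without WT medium 1 and 1545 without WT medium 3. The range was 2543 to 5095 in KO LPS against KO medium, with 2543 without KO LPS 2, 2630 without KO LPS 3 and 2713 without KO medium 1. It was 1810 to 4093 in KO LPS against WT LPS, with 1810 without KO LPS 2, 1982 without KO LPS 3 and 1822 without WT LPS 3. In KO medium against WT medium it was 2196 to 4735, with 2269 without KO medium 1, 2196 without WT medium 1 and 2235 without WT medium 3. It was 0 to 245 in KO LPS against WT medium, with 245 without KO LPS 1, and in KO medium against WT LPS 0 to 2, with 2 without KO medium 1. Without KO LPS 2 and 3 they were 285 higher and 577 lower in KO LPS against KO medium, 119 and 417 in KO LPS against WT LPS, and 1582 and 2042 for the interaction. With 2 groups fitted alone they were 1123 and 467 in WT and 806 and 1379 in KO LPS against WT LPS. Without the filter, 95 genes were higher and 4 lower in KO LPS against WT medium, and 2 and 1 in KO medium against WT LPS. The causes were not tested. Counting limits Ifnb1 most, with 7 to 114 reads per group.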
